A study of Mus musculus with 16 samples.

Results

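The genes described are 39 genes of the machinery that carries secretory granules to the plasma membrane and fuses them with it. Members were found by matching their symbols to the Ensembl gene identifiers of the count files through the GENCODE M21 annotation of mouse build GRCm38, and all 39 had an identifier among the 39179 genes listed. Enough reads for a test were counted on 34 of them, within 13305 genes tested in all.

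RNA was sequenced from bone marrow derived mast cells (BMMCs), which are mast cells grown from mouse marrow in stem cell factor and interleukin 3, to compare antigen activation and glucocorticoid treatment with and without the phosphatase PEP. The marrow came from male C57BL/6 mice of 8 to 10 weeks, either wild type (PEP+/+) or with a constitutive loss of PEP (PEP-/-), the product of Ptpn22, and the cells were used after 4 weeks in culture. All groups received IgE (0.05 µg/ml, 3 h), which loads the high-affinity IgE receptor. The groups named IgE DNP also received the antigen DNP on albumin (200 ng/ml, 1 h), the groups named IgE DEX received dexamethasone (DEX, 100 nM, 8 h), a synthetic glucocorticoid, and the groups named IgE DNP DEX received both. Each of the 8 groups had 2 samples, 1 numbered in the labels (replicate 1) and 1 lettered (replicate 2), and the number of mice and cultures behind them is not given, so p-values measure the spread between these samples.

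Fusion of a granule with its target membrane is driven by SNARE proteins, in which an R-SNARE on the granule zips together with a syntaxin and a SNAP protein on the target. Sec1/Munc18 (SM) proteins hold the syntaxin ready, priming factors and Rab GTPases tether and dock the granule, calcium sensors set off fusion, and the ATPase Nsf with its adaptor Napa takes spent complexes apart. In mast cells this machinery releases preformed histamine, proteases and proteoglycans within minutes of receptor cross-linking, and it also serves the constitutive traffic by which newly made cytokines leave the cell.

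Reads assigned to genes came to 8612531 in the smallest library and 22143526 in the largest. Ptpn22 had 130 to 2799 reads per PEP+/+ sample and 0 to 55 per PEP-/- sample. All 10 mast cell markers exceeded 1 CPM (reads scaled to a common library size, with TMM factors), with a summed level of 67400 to 76200 CPM after IgE, 76500 to 93200 after IgE DNP, 74200 to 82600 after IgE DEX and 87700 to 115000 CPM after IgE DNP DEX. The 2 basophil genes, Mcpt8 and Il3ra, summed to 120 to 208 CPM after IgE DNP DEX and 100 to 145 CPM after the other treatments. The 6 macrophage, 6 neutrophil, 3 eosinophil, 3 B cell and 3 T cell markers reached at most 8.06 CPM in sum within a list, and the eosinophil sum, nearly all Siglecf, was 0.173 to 2.09 CPM after IgE and 2.81 to 7.79 CPM after IgE DNP. The part of these levels in the results was not tested. Defining markers listed at 0 in every sample were C1qa, Camp, Epx, Ear1, Ms4a1, Cd3e and Cd3g. In such bulk samples, fewer cells of a type and less RNA per cell cannot be told apart. Numbered and lettered samples differed throughout: 27 of the 34 members differed between these sets, as did 63.6% of all genes tested (edgeR quasi-likelihood test, adjusted p under 0.05). Samples of the same set deviated together, so each comparison is given without and with the set as a block, which lowered the common biological coefficient of variation from 0.312 to 0.133. PEP+/+ IgE DNP DEX followed this pattern least: its replicate difference correlated across genes with those of the other groups at 0.453 to 0.554, against at least 0.651 among the others.

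Promoters were read for 30 of the 39 members from RefSeq windows (GRCm38.p6) running from 250 bases before to 50 after the start site. The E-box CACGTG, a palindrome bound by basic helix-loop-helix factors such as the MiT family, stood in 8 of these 30 (26.7%), against 8.09% of 27025 genes. They were Stx6, Vamp4, Napa, Stxbp2, Rab27a, Nsf, Scamp1 and Rab5a. The 27025 genes include many without enough reads for a test here, and the share among tested genes was not computed. Motifs were searched on both strands. The full glucocorticoid response element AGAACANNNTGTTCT was in none of the 30 windows (0.0111% of all genes), the AP-1 site TGANTCA was in that of Syt2 (8.97%), and the cyclic AMP response element TGACGTCA was in those of Stxbp3, Napa and Rab5a (2.03%). A match in letters is a description and was not tied to binding of any factor. Over all 16 samples, 26 of the 34 tested members were called in at least 1 comparison, without or with the block. The share of all tested genes so called was not computed. With the block, antigen without DEX alone called 18.6% of all genes higher and 19.3% lower. Since most tested members were called, a call was not tied to the E-box. Of the 8 members with an E-box, all but Stxbp2 were so called with antigen or DEX. Upstream bases are shown for 4 of them, Stx6 and Vamp4, which were called without the replicate block, and Napa and Rab5a, which hold more than 1 E-box, all on the plus strand of GRCm38 and with the E-boxes in capitals. The Napa stretch is 128 bases and ends before a further E-box that begins 29 bases before the start site. The stretches are chr1:155158453-155158702 for Stx6, chr1:162570265-162570514 for Vamp4, chr7:16098330-16098457 for Napa and chr17:53478984-53479233 for Rab5a.
Stx6: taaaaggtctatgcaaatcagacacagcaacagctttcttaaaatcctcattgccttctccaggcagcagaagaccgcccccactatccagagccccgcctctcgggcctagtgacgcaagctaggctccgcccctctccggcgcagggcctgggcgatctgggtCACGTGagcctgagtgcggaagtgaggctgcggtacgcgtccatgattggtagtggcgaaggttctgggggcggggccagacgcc
Vamp4: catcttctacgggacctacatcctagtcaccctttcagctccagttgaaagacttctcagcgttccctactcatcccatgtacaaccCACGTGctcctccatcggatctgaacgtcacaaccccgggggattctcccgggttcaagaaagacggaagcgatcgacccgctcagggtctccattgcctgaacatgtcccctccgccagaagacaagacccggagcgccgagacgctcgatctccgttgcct
Napa: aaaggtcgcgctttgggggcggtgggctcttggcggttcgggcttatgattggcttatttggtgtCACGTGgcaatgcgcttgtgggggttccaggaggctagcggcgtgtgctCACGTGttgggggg
Rab5a: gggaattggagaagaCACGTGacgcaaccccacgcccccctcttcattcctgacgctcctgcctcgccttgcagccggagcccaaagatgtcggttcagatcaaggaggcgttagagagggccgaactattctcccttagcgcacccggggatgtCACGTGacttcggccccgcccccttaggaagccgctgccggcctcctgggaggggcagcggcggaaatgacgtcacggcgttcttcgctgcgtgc

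The machinery was present at very unequal levels. Levels between genes are given as RPKM, which is CPM divided by the summed exon length in kilobases, averaged over the 16 samples. Scin, the calcium-dependent actin-severing protein scinderin, had the highest mean at 681 RPKM, with single samples from 302 to 1310 RPKM. Rab7, the late endosome GTPase, followed at 103 RPKM and Vamp8, the R-SNARE of mast cell granules, at 94.6 RPKM. Their sample ranges overlapped (72.7 to 140 and 69.3 to 129 RPKM), so this order does not exceed the spread. Rab37, a GTPase of mast cell secretory granules, stood at 57.7 RPKM, Stx4a, the plasma membrane syntaxin, at 56.5 RPKM and Stxbp2, the SM protein that binds Stx3 and Stx11, at 53.6 RPKM. These levels depend on the length used. By the longest transcript Rab37 stood at 118 RPKM, above Vamp8 at 105 and below Rab7 at 125. Stx6, Nsf and Vti1a then stood at 12.4, 27.1 and 8.09 RPKM, against 5.34, 12.2 and 2.74 by summed exon length.

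The membrane partners of Vamp8 were also abundant in RPKM. Snap23, which pairs with Stx4a at the plasma membrane, had a mean of 42.6 RPKM, and Unc13d, the priming factor of cytotoxic and mast cell granules, 32.3 RPKM. Among the R-SNAREs, Vamp3 of recycling endosomes (35.7 RPKM) and Vamp2 (16.4 RPKM) were below Vamp8, and Vamp4 of the trans-Golgi network stood at 5.82 RPKM. Of the related granule GTPases, Rab27b (25.6 RPKM) exceeded Rab27a (11.1 RPKM), and Rab3d (11.5 RPKM) exceeded Rab3a (1.93 RPKM). Other members at intermediate levels were Vti1b (39.7 RPKM), Napa (36.0 RPKM), Rab11a (31.4 RPKM), Scamp2 (30.7 RPKM), Snap29, a SNAP protein of several membranes (26.8 RPKM), Stx3 (20.5 RPKM), Stx7 (16.9 RPKM), Kif5b (16 RPKM) and Nsf (12.2 RPKM). Stx11 (8.31 RPKM), Scamp1 (7.81 RPKM), Rab5a (7.69 RPKM), Stx6 (5.34 RPKM), Stx2 (5.12 RPKM), Vti1a, a trans-Golgi Q-SNARE (2.74 RPKM), Stxbp3, the SM protein of Stx4a (2.43 RPKM), and Dock5 (2.39 RPKM) were lower. The lowest tested members were Lyst, whose loss enlarges granules in Chediak-Higashi syndrome, at 1.83 RPKM and Syt11, a synaptotagmin, at 1.17 RPKM.

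Several calcium sensors and regulators known from neurons had few reads. Syt2 had at most 2 reads in a sample, Syt3 at most 9 and the complexin Cplx2 at most 10, and Marcks, an actin-binding substrate of protein kinase C, had at most 3. These 4 did not pass the filter on low counts. Vamp7, a lysosomal R-SNARE, was listed at 0 in every sample. The annotation places it on the unplaced scaffold GL456233.1, and all 86 genes of such scaffolds in the files were at 0 in every sample, so this value says nothing about its expression.

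**Figure D1:**
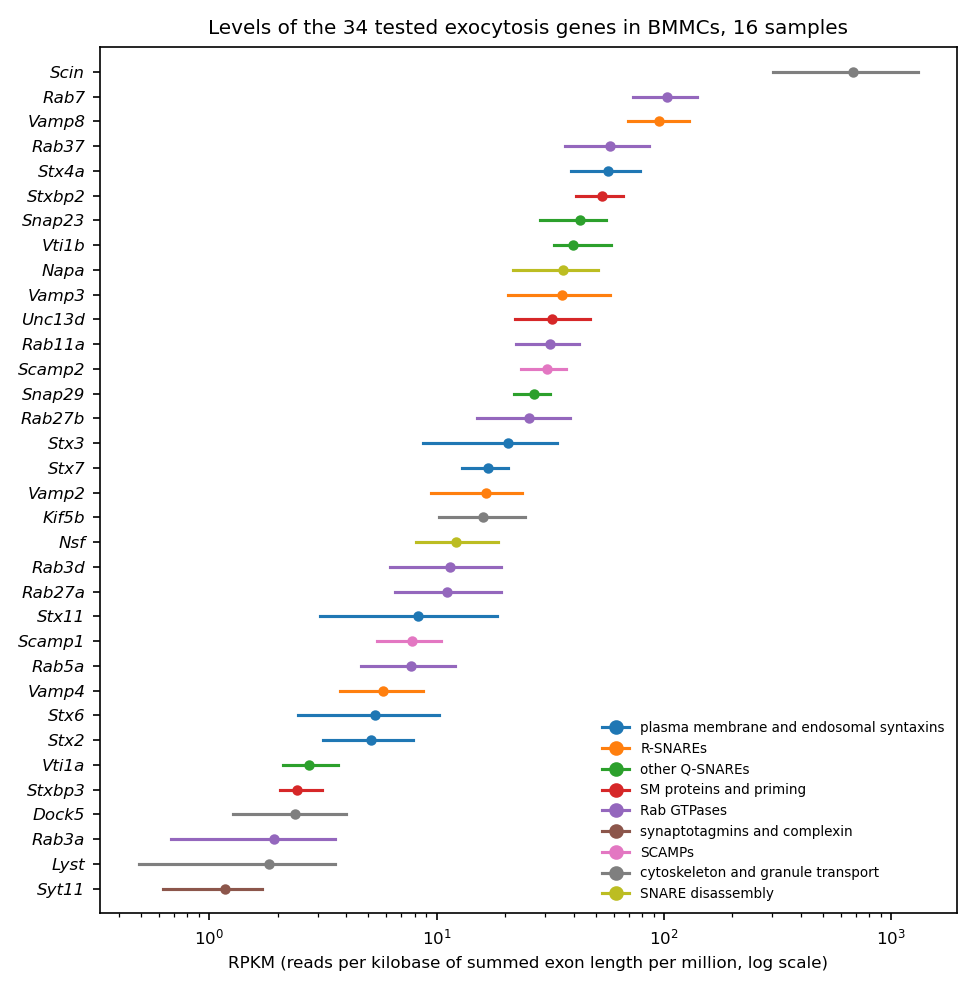
Level of each of the 34 tested members in RPKM (log axis, from summed exon length). Points give the mean over the 16 samples, lines run from the lowest to the highest sample, and colours give the role. Scin stands apart at 681 RPKM, and Rab7, Vamp8, Rab37 and Stx4a follow with overlapping lines.

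Antigen without DEX raised Stx6, Stx11 and Rab7 and lowered Rab3a in cells of both genotypes. In the comparison of IgE DNP with IgE, averaged over the genotypes, 3 of the 34 members rose (8.82%) and 1 fell (2.94%), against 9.07% and 7.58% of all genes tested. With the replicate block 9 members rose (26.5%) and 5 fell (14.7%), against 18.6% and 19.3% of all genes. The members' median log2 fold change was 0.08 and that of all genes was 0, and the members' median was 0.015 without PEP+/+ IgE DNP replicate 1, 0.035 without PEP-/- IgE DNP replicate 1, 0.158 without PEP+/+ IgE DNP replicate 2, 0.181 without PEP-/- IgE replicate 1 and 0.199 without PEP+/+ IgE replicate 1.

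Stx6 (ENSMUSG00000026470, chromosome 1, 155158715 to 155208256) is a syntaxin of the trans-Golgi network and endosomes. After IgE its level was 35.6 and 30.4 CPM in the 2 PEP+/+ samples and 32.5 and 37.1 CPM in the 2 PEP-/- samples. After IgE DNP it was 102 and 108 CPM in PEP+/+ and 88.8 and 108 CPM in PEP-/- BMMCs. Every activated sample lay above every sensitized one, and the log2 fold change was 1.59 ± 0.15 (SE), or 3.00-fold, with an edgeR adjusted p of 2.79e-05.

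Stx11 (ENSMUSG00000039232, chromosome 10, 12938209 to 12964298) is the syntaxin of cytotoxic granules whose loss causes a form of familial haemophagocytic lymphohistiocytosis. Its level rose from 21.7, 12.9, 22.3 and 14.8 CPM after IgE to 62.8, 56.4, 56.4 and 77.8 CPM after IgE DNP (PEP+/+ replicates 1 and 2, then PEP-/- replicates 1 and 2, as in the lists that follow). The groups did not overlap and the log2 fold change was 1.82 ± 0.24 (SE; edgeR adjusted p = 0.00037). Stxbp2, the SM protein that binds Stx11, did not pass the test in any of the 8 comparisons in either fit over all 16 samples, and its mean was 209 ± 40.6 CPM after IgE and 218 ± 43.5 CPM after IgE DNP (SD, n = 4 each).

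Rab7 (ENSMUSG00000079477, chromosome 6, 87999106 to 88045270) had 217, 208, 214 and 214 CPM after IgE and 365, 342, 359 and 363 CPM after IgE DNP. Activated samples were all higher, the differences between same-genotype, same-numbered samples lay between 0.71 and 0.76 on the log2 scale, and the log2 fold change was 0.74 ± 0.12 (SE; edgeR adjusted p = 0.00126). An annotated antisense gene, Gm5577, shares 7.82% of its exon length. Rab3a (ENSMUSG00000031840, chromosome 8, 70754679 to 70758677), a GTPase of regulated secretory vesicles, went the other way, from 4.77, 7.63, 4.46 and 7.97 CPM to 1.51, 2.14, 1.72 and 2.31 CPM. Every activated sample was below every sensitized one, and the log2 fold change was -1.69 ± 0.295 (SE; edgeR adjusted p = 0.0023). The counts behind Rab3a were small, from 16 to 155 reads per sample.

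A further 10 members passed only with the replicate block. Napa, the adaptor that loads Nsf onto SNARE complexes, had 87.8, 113, 81.9 and 117 CPM after IgE and 120, 194, 124 and 192 CPM after IgE DNP, which did not overlap, and its log2 fold change with the block was 0.64 (edgeR adjusted p = 7.52e-05, against 0.0684 without). Vamp3 rose by 0.51, Rab5a of early endosomes by 0.50, Rab27a by 0.46, Rab11a of recycling endosomes by 0.32 and Snap23 by 0.29 on the log2 scale. Stx3, a granule and plasma membrane syntaxin, fell by 0.43, Stx2, another plasma membrane syntaxin, by 0.36, Rab37 by 0.35 and Unc13d by 0.26. Each of these 10 moved in its direction in all 4 pairs of same-genotype, same-numbered samples. So did members that were not called here, such as Stx4a and Nsf (higher) and Lyst (lower). The block fit picks members by these same pairs, so their agreement, here and below, adds no separate support. Vamp8, by contrast, passed in no comparison in either fit over all 16 samples, with 221 ± 27.8 CPM after IgE and 224 ± 34.9 CPM after IgE DNP (SD, n = 4).

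**Figure D2:**
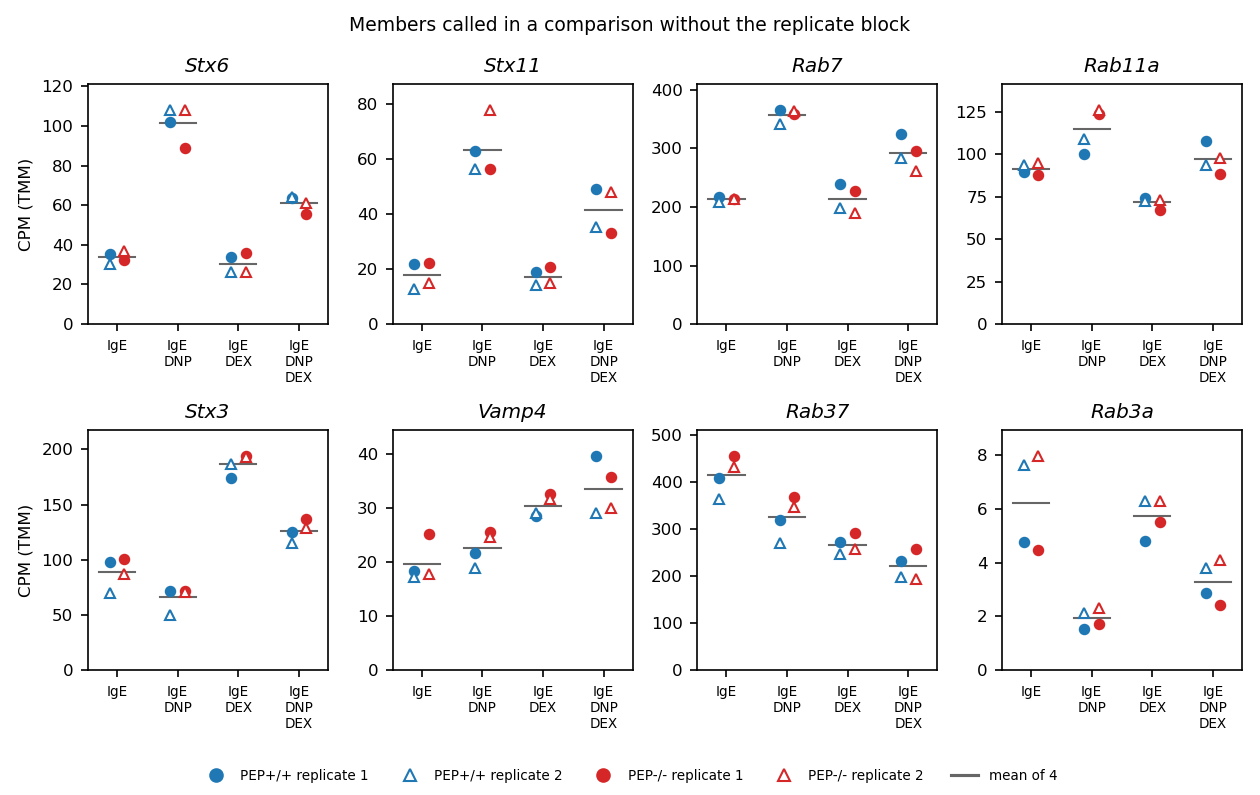
CPM in each of the 16 samples for the 8 members called in at least 1 comparison without the replicate block, by treatment (blue PEP+/+, red PEP-/-, filled circles replicate 1, open triangles replicate 2, grey lines the mean of 4 samples). Stx6, Stx11 and Rab7 are higher after DNP, Stx3 and Vamp4 are higher and Rab37 lower after DEX, and both genotypes lie close together.

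Dexamethasone in sensitized cells raised the syntaxin Stx3 and the R-SNARE Vamp4 and lowered Rab37. In IgE DEX against IgE, 2 of 34 members rose (5.88%) and 1 fell (2.94%), where 5.40% and 3.98% of all genes did. With the block 3 rose (8.82%) and 8 fell (23.5%), against 12.9% and 13.8% of all genes. The median log2 fold change of the members was -0.13, and 7 of 34 (20.6%) were above 0, against 50.1% of all genes. Without PEP+/+ IgE replicate 1 or PEP-/- IgE replicate 1, 13 of 34 were above 0 and the median was -0.062 and -0.067, and without PEP+/+ IgE DEX replicate 2 it was -0.067.

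Stx3 (ENSMUSG00000041488, chromosome 19, 11775118 to 11819403) had 98.0, 69.5, 101 and 87.5 CPM after IgE and 174, 187, 194 and 193 CPM after IgE DEX. All DEX samples lay well above all others, with a log2 fold change of 1.07 ± 0.15 (SE; 2.1-fold, edgeR adjusted p = 0.000759). Vamp4 (ENSMUSG00000026696, chromosome 1, 162570515 to 162599084) had 18.4, 17.2, 25.1 and 17.7 CPM after IgE and 28.5, 29.1, 32.5 and 31.6 CPM after IgE DEX. These did not overlap either, and the log2 fold change was 0.64 ± 0.15 (SE; edgeR adjusted p = 0.0204). The call on Vamp4 was lost without any 1 of the 8 libraries compared other than PEP-/- IgE replicate 1 (log2 fold change 0.52 to 0.67, adjusted p 0.0565 to 0.0948) and with no filter on low counts (0.0629), and held with the block (0.000414).

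Rab37 (ENSMUSG00000020732, chromosome 11, 115091431 to 115162236) fell from 409, 364, 456 and 433 CPM to 272, 248, 291 and 257 CPM after DEX. The groups were separate, with a log2 fold change of -0.63 ± 0.13 (SE; edgeR adjusted p = 0.00971). Without PEP+/+ IgE DEX replicate 2 or PEP-/- IgE DEX replicate 2 its adjusted p was 0.0513 and 0.0518.

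With the block the fall extended to other granule GTPases and to Scin. Rab3d, a GTPase on secretory granules, went from 73.5, 47.9, 74.3 and 56.3 CPM to 45.3, 26.2, 36.3 and 29.6 CPM, every DEX sample below every sample without it. Its log2 fold change was -0.88 in both fits (edgeR adjusted p = 5.76e-06 with the block, 0.0631 without). Rab27b, which docks mast cell granules, went from 400, 239, 402 and 254 CPM to 221, 161, 260 and 182 CPM. These ranges overlapped across the sets but fell in all 4 pairs of the same genotype and set, with a log2 fold change of -0.63 (adjusted p = 0.000144 with the block, 0.2 without).

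Scin showed the same layout at a much higher level, from 3020, 1600, 3150 and 1630 CPM to 2130, 1120, 1650 and 905 CPM. It fell in 4 of 4 pairs, by 0.70 on the log2 scale with the block (edgeR adjusted p = 0.00121, against 0.351 without). Stx2 went from 36.1, 22.2, 34.6 and 32.2 CPM to 23.0, 21.0, 21.1 and 18.6 CPM, with ranges that overlapped only through PEP+/+ IgE replicate 2 and a fall of 0.57 on the log2 scale with the block (edgeR adjusted p = 0.00168). Rab11a fell by 0.35, Scamp2, a secretory carrier membrane protein, by 0.33 and Vamp3 by 0.31, while Nsf, the ATPase of SNARE disassembly, rose by 0.43 on the log2 scale, all with the block only.

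**Figure D3:**
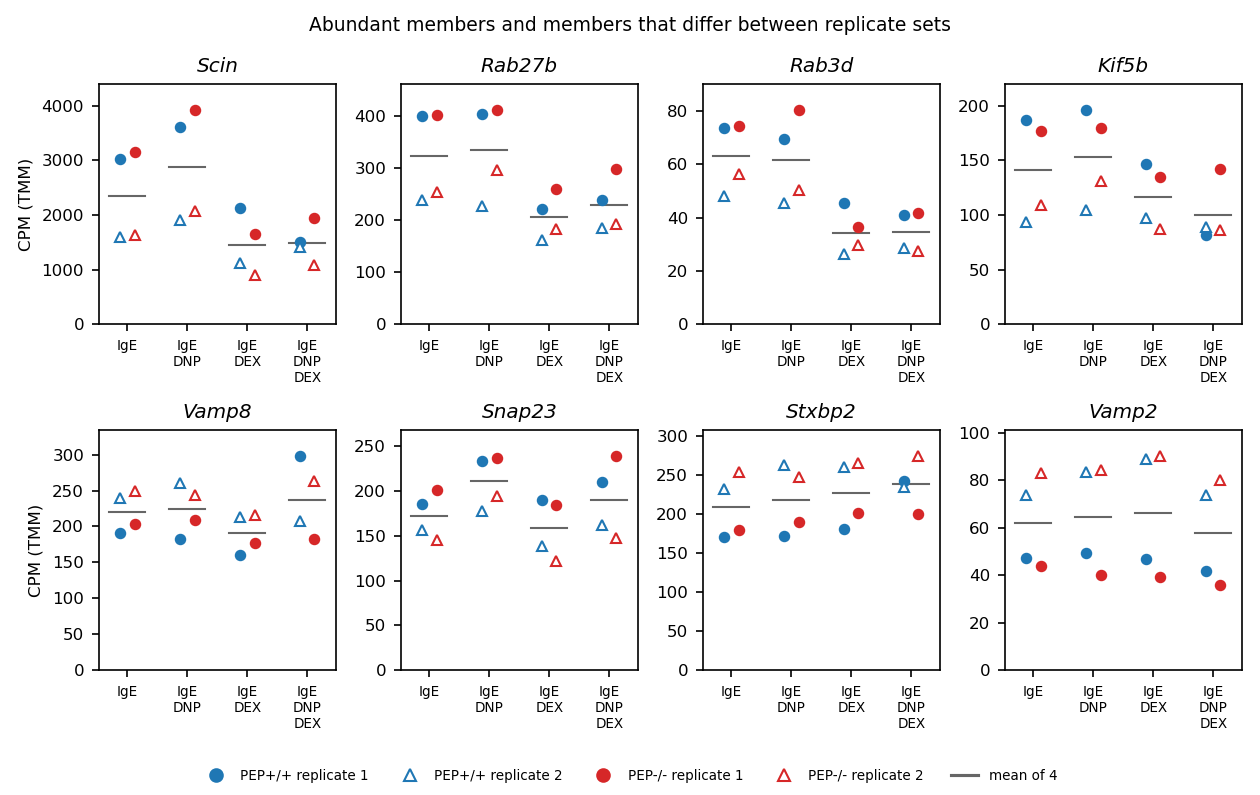
CPM in each sample for 8 members, most of which differ between replicate sets (symbols as in the plot of called members). In the upper row Scin, Rab27b and Rab3d are lower with DEX within each set, and in the lower row the triangles for Vamp2 lie above all its circles. The circle for PEP+/+ IgE DNP DEX lies with the triangles for Scin, Kif5b and Stxbp2.

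In antigen-activated cells DEX raised Stx3 and Vamp4 and lowered Stx6 and Rab37, and with the block it lowered most of the granule and endosome GTPases, Scin and Kif5b. Against IgE DNP, 2 of 34 members rose (5.88%) and 2 fell (5.88%) in IgE DNP DEX without the block, close to the 5.67% and 4.99% of all genes. With the block 3 rose (8.82%) and 17 fell (50.0%), where 15.9% and 17.4% of all genes did. The members' median log2 fold change was -0.28 without and -0.25 with the block, and 8 of 34 (23.5%) were above 0, against 49.1% of all genes. These counts describe members that share samples and are not independent.

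Without the block the risers were again Stx3 and Vamp4. Stx3 had 72.0, 49.8, 71.5 and 70.7 CPM after IgE DNP and 125, 115, 137 and 129 CPM after IgE DNP DEX, with no overlap and a log2 fold change of 0.94 ± 0.15 (SE; edgeR adjusted p = 0.00199). Vamp4 had 21.6, 18.8, 25.5 and 24.7 CPM against 39.6, 29.0, 35.7 and 30.0 CPM, also without overlap, with a log2 fold change of 0.57 ± 0.15 (SE; edgeR adjusted p = 0.0326). That call on Vamp4 was lost without any 1 of 11 of the 16 libraries (adjusted p 0.050 to 0.0979), with only the compared groups in the fit (0.0898) and with no filter (0.104), and it held with the block (0.0013).

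Stx6 and Rab37 fell. Stx6 was at 63.9, 64.0, 55.4 and 61.0 CPM with DEX, below the 88.8 to 108 CPM of activated cells without it and above the 30.4 to 37.1 CPM of sensitized cells. Its log2 fold change was -0.74 ± 0.14 (SE; edgeR adjusted p = 0.00714). Rab37 went from 319, 271, 369 and 348 CPM to 232, 198, 258 and 195 CPM. All its DEX samples were lower, with a log2 fold change of -0.56 ± 0.13 (SE; edgeR adjusted p = 0.0192). Its call was lost without PEP+/+ IgE DNP replicate 1, either PEP-/- IgE DNP replicate or the lettered library of either IgE DNP DEX group (adjusted p 0.0526 to 0.0827), with only the compared groups (0.109) and with no filter (0.0833).

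The members that fell with the block covered most of the Rab GTPases: 7 of the 8 tested fell and the other, Rab3a, rose by 0.77 on the log2 scale. Rab3d fell by 0.81, Rab37 by 0.56, Rab27b by 0.53, Rab27a by 0.52, Rab5a by 0.32, Rab7 by 0.30 and Rab11a by 0.24. Of 6 syntaxins 4 fell, with Stx6 at -0.74, Stx11 at -0.62, Stx2 at -0.49 and Stx7, a late endosomal syntaxin, at -0.38. Of the 4 tested transport and cytoskeleton genes 3 fell, with Scin at -0.88, Dock5, a Rac exchange factor needed for mast cell degranulation, at -0.68 and Kif5b, the kinesin heavy chain that moves granules along microtubules, at -0.59. Vamp3 (-0.35), Scamp1 (-0.28) and Unc13d (-0.27) were the others.

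Rab3d separated cleanly, from 69.5, 45.6, 80.3 and 50.4 CPM to 40.9, 28.6, 41.6 and 27.6 CPM, and Stx11 from 62.8, 56.4, 56.4 and 77.8 CPM to 49.3, 35.2, 33.2 and 48.0 CPM. For Scin and Kif5b the size of the fall differed by library. Scin stood at 1510, 1410, 1950 and 1090 CPM after IgE DNP DEX against 3610, 1910, 3920 and 2070 CPM after IgE DNP. Kif5b stood at 81.8, 88.9, 142 and 85.8 CPM against 196, 105, 180 and 131 CPM. In both, replicate 1 of PEP+/+ IgE DNP DEX was lower than the other numbered samples and near the lettered ones. Without that library the block fit gave log2 fold changes of -0.69 for Scin, -0.45 for Dock5 and -0.39 for Kif5b. Scamp1 (-0.21) and Rab5a (-0.22) were then no longer called. Without replicate 2 of that group Rab11a was no longer called (log2 fold change -0.15). Each of these fits left 1 sample in that group, and calls over all genes rose in both. No count of members is therefore read from them here.

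**Figure D4:**
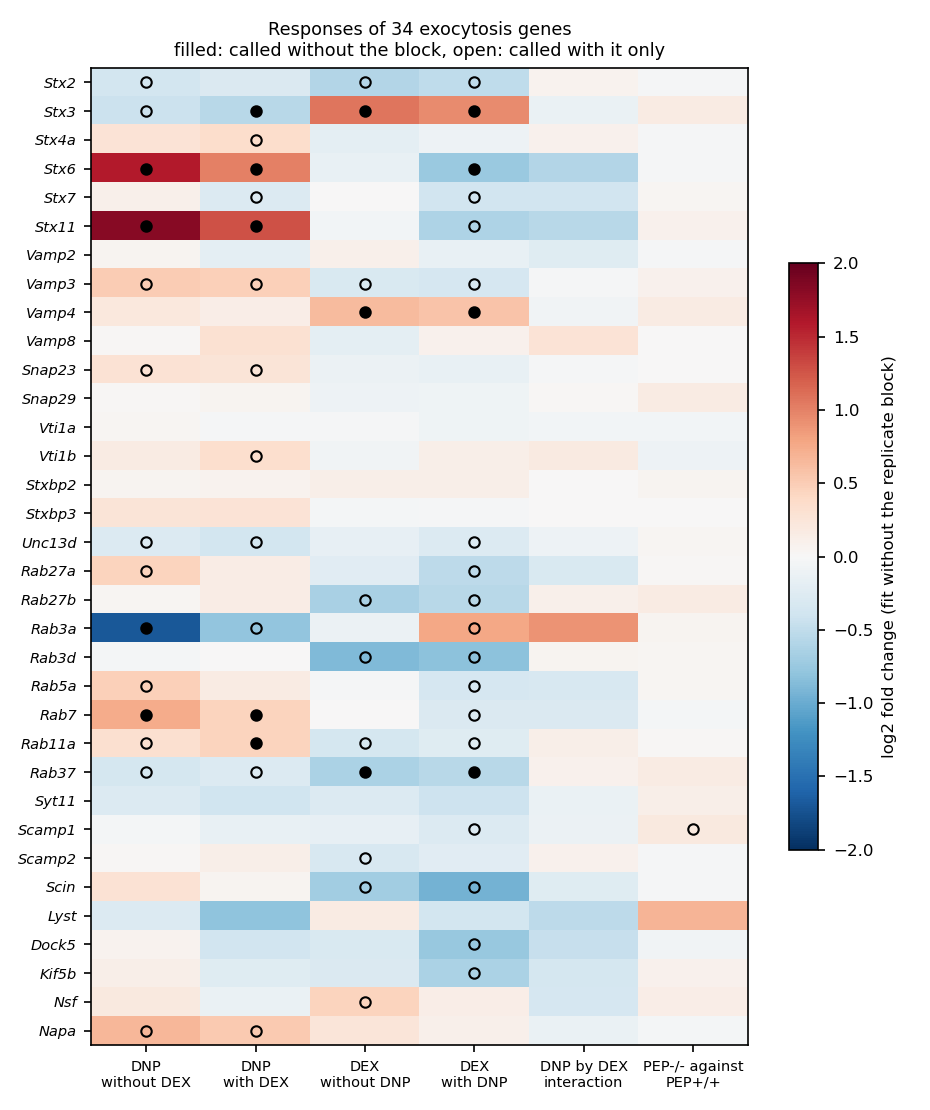
Log2 fold changes of the 34 tested members (rows, by role) in 6 comparisons (columns), from the fit without the replicate block. Filled circles mark calls without the block and open circles calls with it only. The DEX columns hold mostly blue cells, 17 of them called lower with the block in activated cells, and the antigen columns are led by Stx6 and Stx11.

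Antigen in the presence of DEX still raised Stx6 and Stx11. Between IgE DNP DEX and IgE DEX, 4 members rose (11.8%) and 1 fell (2.94%), against 7.19% and 5.42% of all genes. With the block 9 rose (26.5%) and 5 fell (14.7%), against 18.4% and 19.2% of all genes. This comparison shares its DNP DEX samples with the one above.

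After IgE DEX, Stx6 had 34, 26.2, 35.8 and 26.3 CPM, and after IgE DNP DEX it had the values given above, all higher. The log2 fold change was 1.00 ± 0.145 (SE; edgeR adjusted p = 0.00107). Stx11 went from 18.8, 14.2, 20.7 and 15.0 CPM to 49.3, 35.2, 33.2 and 48.0 CPM, again without overlap, with a log2 fold change of 1.27 ± 0.24 (SE; edgeR adjusted p = 0.00523).

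Rab7 went from 239, 198, 227 and 190 CPM to 324, 284, 296 and 262 CPM, a log2 fold change of 0.45 (edgeR adjusted p = 0.0289). Rab11a (ENSMUSG00000004771, chromosome 9, 64715299 to 64737758) went from 74.1, 72.6, 67.0 and 72.9 CPM to 108, 93.8, 88.4 and 97.9 CPM, a log2 fold change of 0.44 (adjusted p = 0.0185). Stx3 fell from the 174 to 194 CPM of IgE DEX to 115 to 137 CPM, a log2 fold change of -0.56 (adjusted p = 0.0277). None of these 3 overlapped between the groups. All 3 calls held with the block (adjusted p 0.00102 to 0.00116), but without it they were lost when single libraries were left out. Stx3 lost its call without any of the 8 compared libraries (adjusted p 0.0613 to 0.11). Rab7 lost it without replicate 2 of either IgE DEX group, replicate 1 of either IgE DNP DEX group or either PEP-/- IgE library (0.0514 to 0.131). Rab11a lost it without either PEP+/+ IgE DEX library, PEP-/- IgE DEX replicate 1 or PEP-/- IgE DNP DEX replicate 2 (0.0549 to 0.0763). With only the compared groups in the fit, Rab7 and Rab11a stood at adjusted p = 0.119 and 0.101, and with no filter Rab7, Rab11a and Stx3 stood at 0.198, 0.218 and 0.0636.

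With the block Napa (0.51), Vamp3 (0.47), Stx4a (0.37), Vti1b, an endosomal Q-SNARE (0.33), and Snap23 (0.26) also rose on the log2 scale, while Rab3a (-0.83), Unc13d (-0.36), Rab37 (-0.28) and Stx7 (-0.28) fell. Without PEP+/+ IgE DNP DEX replicate 1 the calls on Stx4a and Vti1b were lost, both at 0.19 (adjusted p = 0.0795 and 0.0984), and without replicate 2 Vti1b was at 0.50. For Vti1b, 17.7% of the exon length is shared with Arg2 on the opposite strand, and whether the counting used strand is not given in the sources used here.

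The response to antigen was not shown to depend on DEX for any member in a fit over all 16 samples. The edgeR interaction called 0 of 34 members in either fit, against 0.331% of all genes without and 1.57% with the block, with 2 and 4 members at an unadjusted p under 0.05, and DESeq2 also called 0. On simulated counts the fit without the block recovered 0 of 200 such interactions of log2 1 and 65.0% of those of log2 2. Its 0 calls therefore cannot exclude an interaction of log2 1. The largest differences in response with the block were 0.85 ± 0.24 (SE) for Rab3a and -0.59 ± 0.17 (SE) for Stx6 on the log2 scale (edgeR adjusted p = 0.113 and 0.128). Stx7 rose in 4 of 4 pairs with DNP alone, by 0.03 to 0.22, and fell in 4 of 4 pairs with DNP in the presence of DEX, by 0.15 to 0.37, an interaction of -0.38 ± 0.12 (SE) with the block (adjusted p = 0.159). The absence of calls depended on 1 library. Without PEP+/+ IgE DNP DEX replicate 2, the block fit called some members and also more of all genes. That fit left replicate 1 as the only sample of the group, so its calls are not read as a result about the members. Without replicate 1 the interaction with the block was 0.86 for Rab3a, -0.55 for Stx6 and -0.32 for Stx7.

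**Figure D5:**
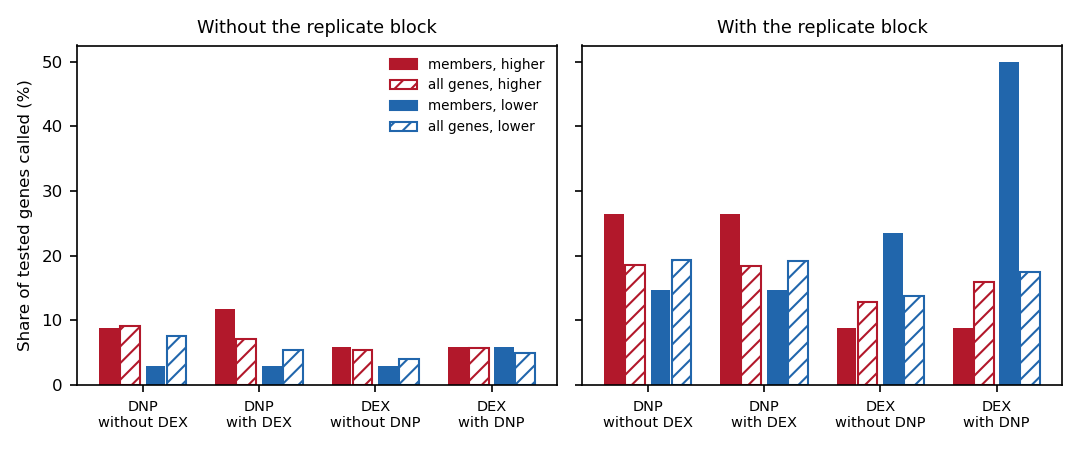
Share of tested genes called higher (red) or lower (blue) in 4 comparisons, for the 34 members (filled bars) and for all 13305 genes (hatched bars), without and with the replicate block. The tallest bar is members lower with DEX in activated cells with the block, 50.0% against 17.4% of all genes, and without the block the same comparison stands at 5.88% against 4.99%.

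Few differences were called between the genotypes. Averaged over the 4 treatments, edgeR called 0 of 34 members between PEP-/- and PEP+/+ BMMCs without the block, where 1.59% of all genes were called, with 0 members at an unadjusted p under 0.05 and 0 called by DESeq2. The log2 differences lay between -0.10 for Vti1b and 0.20 for Scamp1 apart from Lyst at 0.68 ± 0.42 (SE). On simulated counts the fit without the block recovered 60.0% of PEP differences of log2 1, so its 0 calls cannot exclude such a difference. With the block 6 members had an unadjusted p under 0.05 and 1 (2.94%), Scamp1, was called, against 17.4% of all genes, 0.21 higher in PEP-/- BMMCs (adjusted p = 0.0463).

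Scamp1 had 47.2, 43.0, 39 and 31.1 CPM in replicate 1 and 27.3, 28.1, 25.7 and 24.9 CPM in replicate 2 of PEP+/+ BMMCs (IgE, IgE DNP, IgE DEX, IgE DNP DEX). In PEP-/- BMMCs it had 47.6, 44.5, 43.9 and 40.7 CPM and 34.1, 36.2, 30.2 and 28.6 CPM. The genotypes overlapped across sets, and PEP-/- was higher in 8 of 8 matched pairs, as it was for Snap29 (adjusted p = 0.0725 with the block) and Rab27b (0.117). Lyst was higher in 7 of 8 pairs, with 12.2 CPM in PEP+/+ IgE DNP DEX replicate 1 against 52.9 CPM in its PEP-/- counterpart. Without that PEP+/+ library the log2 difference of Lyst with the block was 0.38 (adjusted p = 0.097) and that of Scamp1 was 0.18 (0.053). The members called then changed, with Rab37 at 0.16 and Dock5 at -0.23. Leaving out either library of that group left it with 1 sample and raised the calls over all genes as well. No count of members is therefore read from those fits here.

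No difference between the genotypes in their responses was called in a fit over all 16 samples. No member was called in the interaction of PEP with antigen or of PEP with DEX in activated cells, and 0% of all genes were called in either, with and without the block. Unadjusted p-values under 0.05 were found for 0 members without the block and, for PEP with DEX, 2 with it (Rab11a and Stx2), and DESeq2 called 0, with 1 member at an unadjusted p under 0.05 for PEP with DEX. The standard errors of these interactions were wide, such as 1.19 on the log2 scale for Lyst. On simulated counts the fit without the block recovered 0 of 200 changes of log2 1 in either interaction. Of changes of log2 2 it recovered 15.5% for PEP with antigen and 9.5% for PEP with DEX, so its 0 calls cannot exclude such differences. For Stx6 the log2 fold change was 1.675 in PEP+/+ and 1.499 in PEP-/- BMMCs, and for Stx11 it was 1.78 and 1.86. Without PEP+/+ IgE DNP DEX replicate 2, and so with 1 sample in that group, the block fit called Vamp8 and Vti1b lower in the interaction of PEP with DEX. It also called genes outside the members.

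The 8 tested members called in no comparison, without or with the block over all 16 samples, were Vamp8, Vamp2, Stxbp2, Stxbp3, Snap29, Vti1a, Syt11 and Lyst. This rested on the PEP+/+ IgE DNP DEX libraries. Without replicate 2 the block fit called Vamp8 (0.54 for antigen with DEX), Stxbp2 (0.28 for DEX in activated cells), Syt11 (-0.51 for DEX in activated cells), Lyst (-1.35 for antigen with DEX) and Snap29 (0.19 for PEP). Without replicate 1 it called Vamp8 (-0.22 for DEX in sensitized cells) and Stxbp3 (0.34 for antigen with DEX). The fit without replicate 2 left replicate 1 as the only sample of that group. In these comparisons the PEP+/+ replicate 1 pair of Vamp8 differed by 0.90, against -0.05, 0.04 and 0.28 in the other pairs. For Stxbp2 it differed by 0.49 against -0.15, 0.07 and 0.15, and for Lyst by -1.58 against -0.61, -0.24 and -1.2. For Syt11 it differed by -0.53 against -0.22, -0.23 and -0.58. Among the 4 comparisons of DNP or DEX with the block, the log2 fold changes of Snap29 lay between -0.10 and 0.05, those of Vti1a between -0.06 and 0.04 and those of Lyst between -0.78 and 0.26.

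Other genes of the secretory pathway were taken from a list of 105, of which 75 were tested. Antigen without DEX raised 7 (9.33%) and lowered 5 (6.67%) of them, against 9.07% and 7.58% of all genes, and with the block 14 (18.7%) and 13 (17.3%), against 18.6% and 19.3%, so these shares were near those of all genes. The largest increases were Sytl3, a Rab27 effector, at 2.12 on the log2 scale, Rab38, a GTPase of lysosome-related organelles, at 1.73 and Rab3gap2, a regulator of Rab3, at 1.22. Sec22c (-1.29), the Rab3 exchange factor Madd (-0.99) and the vesicle SNARE Vamp1 (-0.90) fell most. Rab38 went from 362 to 504 CPM after IgE to 1310 to 1540 CPM after IgE DNP, and Madd from 82.3 to 131 CPM to 40.2 to 61.7 CPM, without overlap in either.

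DEX in sensitized cells raised 6 (8%) and lowered 2 (2.67%) genes of this list, against 5.40% and 3.98% of all genes, and with the block 9 (12%) and 14 (18.7%), against 12.9% and 13.8%. In activated cells it raised 4 (5.33%) and lowered 2 (2.67%), against 5.67% and 4.99% of all genes, and with the block 12 (16%) and 11 (14.7%), against 15.9% and 17.4%. Rims3, a relative of the Rab3 effectors of the active zone, rose by 3.26 and 2.72 on the log2 scale, from 1.04 to 2.86 CPM after IgE to 9.46 to 20.3 CPM after IgE DEX. Mlph, the Rab27a effector melanophilin, rose by 1.69 and 1.64, and Sytl3 by 2.03 in sensitized cells, while Stxbp6, which binds syntaxins, rose by 1.54 in activated cells. Stxbp6 had few reads, with 0.246 to 1.24 CPM after IgE DNP and 0.952 to 1.72 CPM after IgE DNP DEX, which overlapped. Sytl2, another Rab27 effector, fell by 1.39 and 1.10.

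With DEX present, antigen raised 4 (5.33%) and lowered 2 (2.67%) genes of the list, against 7.19% and 5.42% of all genes, and with the block 12 (16%) and 14 (18.7%), against 18.4% and 19.2%. They were led by Rab38 (1.59), Hps6 (0.91), a subunit of a granule biogenesis complex, and the Golgi SNARE Bet1l (0.84), with Madd (-0.91) and Bloc1s3 (-0.52) lower. Between the genotypes 0 genes of the list were called by edgeR without the block, with 2 at an unadjusted p under 0.05, and 0 by DESeq2, against 1.59% of all genes by edgeR, and with the block 3 were higher and 4 lower, together 9.33% against 17.4% of all genes.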

How the data were processed

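RNA of 16 BMMC samples was sequenced as stranded, paired-end libraries. Alignment by the authors used TopHat2 and GRCm38, and HTSeq gave the deposited raw counts per gene, whole numbers without normalization. The strand setting of the counting is not given in the sources used here. Alignments at several sites were not counted and came to 30.2 to 75.0% of the counted reads, so genes with near copies are uncertain. This share differed by treatment, at 30.2 to 40.6% after IgE, 34.9 to 53.2% after IgE DNP and 37.5 to 45.9% after IgE DEX. After IgE DNP DEX it was 48.9 to 75.0%, and its part in the results was not tested. Rows that name no gene were left out, and reads outside genes came to 7.0 to 19.8% of the counted reads. The IgE dose is that of the labels, and the study's methods give another.

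The members, lists and comparisons were chosen with earlier results of these data known. All 16 samples entered 1 quasi-likelihood fit (edgeR 4.0.16, R 4.3.3, TMM factors, a mean per group), after filterByExpr with a minimum count of 10, and Benjamini-Hochberg adjustment over 13305 genes. Genes with an adjusted p under 0.05 were called. Replicate numbers (numbered samples 1, lettered samples 2) were taken to pair the samples, since the replicate differences of all 28 pairs of groups were correlated (r 0.453 to 0.799, median 0.718). Matched differences used log2(CPM + 0.5). Members called in either fit were named, the 12 with the lowest adjusted p without the block were shown in every sample, and at most 3 pathway genes per direction and comparison were named, of which some are not reported here. Rab27b, Kif5b, Scamp1 and the members in the plot of replicate sets were shown after their values were seen. RPKM used summed exon lengths of GENCODE M21. Alternatives were DESeq2 1.42.0, its size factors, other filters, only the compared groups, the block and each library left out. The edgeR step was tested on simulated counts.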

Additional observations from a re-analysis of the deposited data

How the results depend on the processing

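No call made over all 16 samples without the block changed direction under any alternative, nor did any made with the block when a PEP+/+ IgE DNP DEX library was left out. Other values did change sign with the block between leaving out replicate 1 and replicate 2 of that group: the interaction of Scin (0.02 and -0.38), PEP with DEX for Vamp8 (0.19 and -0.71), PEP for Dock5 (-0.23 and 0.02) and DEX in activated cells for Lyst (0.20 and -0.74). Without the block, Stx6 and Stx11 with antigen, Rab7 and Rab3a with antigen alone and Stx3 with DEX kept their calls in all alternatives run. The replicate block raised the number of genes called from 2216 to 5042 for antigen, from 1247 to 3548 for DEX in sensitized cells, from 1418 to 4429 for DEX in activated cells, from 1678 to 5007 for antigen with DEX, from 44 to 209 for the interaction and from 212 to 2310 for PEP. Members called rose from 4 to 14, 3 to 11, 4 to 20, 5 to 14 and, for PEP, from 0 to 1. With the block and without PEP+/+ IgE DNP DEX replicate 1, an alternative chosen after seeing the data, genes called in the same order were 6123, 4684, 4567, 4975, 335 and 2845, and members were 16, 17, 20, 16, 0 and 2. Without replicate 2 they were 6127, 4688, 5884, 6286, 1879 and 4396, and members were 16, 17, 25, 21, 8 and 8, with 406 genes and 2 members for PEP with DEX. DESeq2 called 7 members for antigen and 6 for DEX in sensitized cells, and 96 genes for the interaction and 668 for PEP. With no filter 5 members were called for DEX in sensitized cells, 3 for antigen with DEX and 1 for PEP, and 107 genes for the interaction, 472 for PEP, 3 for PEP with antigen and 24 for PEP with DEX. With only the compared groups, DEX in activated cells gave 805 genes and 2 members and antigen with DEX gave 953 and 3. Leaving out 1 library at a time without the block gave 1390 to 2251 genes and 4 to 6 members for antigen, 845 to 1269 and 1 to 4 for DEX in sensitized cells, 852 to 1317 and 2 to 4 for DEX in activated cells, 927 to 1604 and 2 to 5 for antigen with DEX, 12 to 27 and 0 for the interaction, 57 to 203 and 0 for PEP, and 0 for both interactions of PEP. The causes were not tested. Depth limits Rab3a and Syt11 most, with as few as 16 and 25 reads in a sample.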
